A study of Caenorhabditis elegans with 2 samples.

Results

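The mir-51 family of Caenorhabditis elegans consists of 6 microRNA (miRNA) genes, mir-51 to mir-56, and they were examined for nearby peaks of TBX-7, a T-box transcription factor, in late embryos. The genes were chosen by symbol (cel-mir-51 to cel-mir-56 in the annotation), with the peaks beside them already known, so their peak counts are a description. They are 6 of the 261 genes annotated as miRNA. A gene was counted as having a peak where a summit, the point of highest signal in a peak, lay within 1000 bp of its hairpin on either side. The data are ChIP-seq (sequencing of immunoprecipitated chromatin) from whole hermaphrodites of strain OP311, in a single group of 2 biological replicates collected as late embryos 3 h after egg bleaching. The strain carries a transgene for TBX-7 with a C-terminal GFP-FLAG tag, and the immunoprecipitation used an anti-GFP antibody, so the data concern the tagged protein. The sources used here do not give the promoter that drives the transgene. No second condition was compared, and because whole animals were used, the data do not show in which cells a peak was formed.

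A miRNA is cut from a hairpin in its primary transcript and guides an Argonaute protein to messenger RNAs, which it recognises mainly through its seed, bases 2 to 8 from its 5′ end. miRNAs with the same seed form a family and can share targets. The mir-51 family is abundant in the worm and related to the conserved miR-99 and miR-100 family. Its members act redundantly: loss of the whole family is lethal in embryos, and a published target is cdh-3, a cadherin gene, in the attachment of the pharynx.

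The mature sequences show what makes these genes a family and how far the members differ beyond it. They are given 5′ to 3′ from RefSeq on WBcel235 (ce11), with the seed in capitals.

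mir-51: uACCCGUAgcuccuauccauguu

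mir-52: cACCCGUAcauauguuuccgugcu

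mir-53: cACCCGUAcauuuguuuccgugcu

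mir-54: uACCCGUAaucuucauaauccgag

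mir-55: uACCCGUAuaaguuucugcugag

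mir-56: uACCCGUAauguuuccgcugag

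All 6 carried the seed ACCCGUA, and among 458 mature arms of 260 miRNA genes in RefSeq no other gene had it. The arm with the seed was the 5′ arm of the hairpin in mir-51, mir-52 and mir-53 and the 3′ arm in mir-54, mir-55 and mir-56. Outside the seed, compared base by base from the 5′ end, mir-52 and mir-53 were identical at 16 of 17 positions (94.1%). The other pairs shared from 12.5% (mir-54 and mir-55, 2 of 16) to 46.7% (mir-54 and mir-56, 7 of 15) of the positions outside the seed. No gaps were allowed, so these shares can understate likeness between sequences of unequal length. For example, mir-55 and mir-56 scored 26.7% (4 of 15), although their last bases are nearly the same.

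The 6 genes lie at 3 loci. On chromosome IV, cel-mir-53 (chrIV:11027593-11027691, minus strand) and cel-mir-51 (chrIV:11026013-11026112, minus strand) are 1480 bp apart in intergenic sequence, with mir-53 first in the direction of transcription. The nearest protein-coding gene starts are those of alh-3 on one side and hrg-5 on the other. The third member on this chromosome, cel-mir-52 (chrIV:14034008-14034107, plus strand), stands alone in intergenic sequence, 13810 bp and 9673 bp from the nearest protein-coding starts, irld-55 and Y37A1B.7. On chromosome X, cel-mir-54 (chrX:13144996-13145094), cel-mir-55 (chrX:13144827-13144924) and cel-mir-56 (chrX:13144691-13144787) lie within 404 bp on the minus strand, inside an intron of F09A5.3, which runs on the opposite strand. Such neighbours can share a peak, so counts are given by gene and by locus.

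Of the 6 genes, 5 had a summit within 1000 bp in the authors' final list of 690 peaks. That list was made with a test of the irreproducible discovery rate (IDR) between replicates. It holds exactly the 690 strongest peaks of the list called on both replicates together. A place in it therefore does not by itself show that a peak was alike in both replicates. Among the other 255 miRNA genes the share was 5.10% (13 genes, Wilson 95% interval 3.00 to 8.53%). These 13 genes shared 6 summits, whereas the interval treats each gene as independent and so is too narrow. The family summits numbered 4: 1 at mir-51, 2 at mir-52 and 1 upstream of mir-54, mir-55 and mir-56 together. By locus, 3 of 3 had a summit, against 2.37% of the other 211 miRNA loci (5 loci). The gene without one, mir-53, had a summit in the list called on both replicates before the IDR test. In that list, all 6 genes had a summit, and so did 36.1% of the other miRNA genes. The corresponding shares of other miRNA genes were 44.7% in the replicate 1 list and 32.5% in the replicate 2 list, where all 6 family genes also had a summit. The lists before the IDR test are permissive, with 8759 peaks for both replicates, 16060 for replicate 1 and 9840 for replicate 2, so presence there carries little weight without the rank of the peak.

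**Figure D1:**
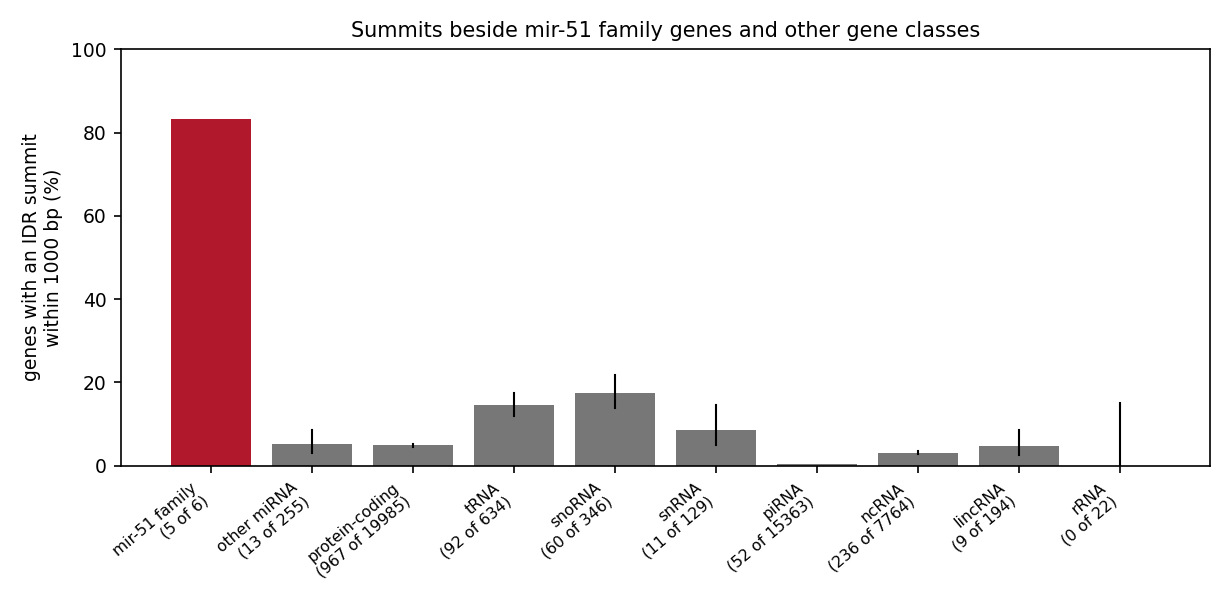
Share of genes with a summit of the IDR list within 1000 bp (y axis, percent). Bars show the mir-51 family, the other miRNA genes and the further gene classes that were counted. Lines on the grey bars are Wilson 95% intervals, which cover counting error only and treat genes as independent, although neighbours can share a summit. A summit was found for 5 of 6 family genes, against 5.10% of other miRNA genes, and the family was chosen with this result known.

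The other gene classes give a second background. A summit of the IDR list lay within 1000 bp of 4.84% of protein-coding genes, 3.04% of unclassified non-coding RNA genes, 4.64% of lincRNA genes, 14.5% of tRNA genes, 17.3% of small nucleolar RNA genes and 0.338% of piRNA genes. On chromosome IV, 2 of 3 family genes had an IDR summit, against 4.26% of other miRNA genes (2 of 47). On X, 3 of 3 family genes had one, against 4.23% of other miRNA genes (3 of 71). These other genes include mir-55b, which overlaps mir-55 and whose summit is the family's own. The rest were mir-4921 and mir-4923.1, which shared a summit. The miRNA genes closest to the 1000 bp limit were mir-4923.1 at 990 bp inside it and mir-4923.2 at 1228 bp outside it. The third gene beyond the limit was mir-53 itself, 1391 bp from the summit at mir-51.

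The windows around the summits, 50 bp to either side, show the sequence under each family peak. They are read on the strand of the miRNA gene from the RefSeq sequence of WBcel235 (ce11). Capitals mark words of the search described further on. At mir-51 they mark GGTGT on either strand, the last copy joined to the word GGTTCGA. In the window before mir-54 they mark CACGTG, and there and at mir-53 they mark GAGAGA, which is found on the opposite strand and so reads as TCTCTC. In the first mir-52 window, which held none of these words, they mark the mature miRNA in DNA letters. The second mir-52 window held neither and has no capitals.

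mir-51, summit in the IDR list, chrIV:11026152-11026252: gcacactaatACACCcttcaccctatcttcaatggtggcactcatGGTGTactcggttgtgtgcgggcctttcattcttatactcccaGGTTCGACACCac

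mir-52, first summit in the IDR list, chrIV:14033953-14034053: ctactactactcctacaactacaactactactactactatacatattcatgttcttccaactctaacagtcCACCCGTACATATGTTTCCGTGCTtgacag

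mir-52, second summit in the IDR list, chrIV:14034159-14034259: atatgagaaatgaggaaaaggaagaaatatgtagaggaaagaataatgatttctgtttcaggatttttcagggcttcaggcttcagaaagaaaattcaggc

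mir-54, mir-55 and mir-56, summit in the IDR list, chrX:13145274-13145374: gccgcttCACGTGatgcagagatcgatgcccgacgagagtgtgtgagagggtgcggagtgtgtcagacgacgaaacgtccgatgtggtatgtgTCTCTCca

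mir-53, summit only in the lists before the IDR test, chrIV:11027745-11027845: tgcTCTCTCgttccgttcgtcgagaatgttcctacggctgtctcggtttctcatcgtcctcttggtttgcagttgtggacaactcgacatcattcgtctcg

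The strongest family peak was at mir-51. Its interval (chrIV:11026089-11026332) had a signal of 285 and ranked 75 of 690 in the IDR list. Signal is the authors' own value per peak, on the scale of their peak caller. The signal of that list ran from 86.0 to 1661, with a median of 134. The summit lay 90 bp upstream of the mir-51 hairpin in the lists of both replicates together and of replicate 1, and 73 bp upstream in replicate 2. It ranked 109 in the replicate 1 list, with a signal of 130, and 50 in the replicate 2 list, with a signal of 146. Signals were set within each list, and the lists differ in length, so a rank is also given as a share of its list where the replicates are set side by side. The mir-51 peak stood in the top 0.679% of the replicate 1 list and the top 0.508% of the replicate 2 list. Its interval was narrower than most, at 244 bp, while 73.3% of the intervals of the IDR list had the same length of 444 bp. The summit lay inside F36H1.17, a short unclassified non-coding RNA gene on the strand of mir-51 (chrIV:11026131-11026219).

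The peaks at mir-52 came next. In the IDR list the first ranked 147 with a signal of 207 (chrIV:14033781-14034224), and its summit lay 5 bp upstream of the hairpin. The second ranked 376 with a signal of 127 (chrIV:14033987-14034430), and its summit lay 102 bp downstream of the hairpin, so the pair of summits, 206 bp apart, flanked the gene. Both replicates listed both summits in this order of strength. In replicate 1 they ranked 204 and 601 (signals 94.2 and 51.4) and lay 5 bp upstream and 101 bp downstream. In replicate 2 they ranked 116 and 363 (signals 110 and 62.8), and the first lay inside the hairpin, the second 155 bp downstream. As shares of the list they were close: the top 1.27% in replicate 1 and 1.18% in replicate 2 for the first summit, and the top 3.74% and 3.69% for the second. The summits of replicate 2 thus stood 50 bp and 54 bp further along the gene than those of replicate 1. The window of the first summit reaches into the hairpin and holds the whole mature mir-52 sequence, printed in capitals above. The first summit also lay in 2 overlapping unclassified non-coding RNA genes, Y37A1B.330 on the plus strand and Y37A1B.335 on the minus strand. No other summit of the IDR list was closer to mir-52 than 146303 bp.

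A single weaker peak stood before the cluster of mir-54, mir-55 and mir-56. It ranked 579 of 690 in the IDR list with a signal of 96.4 (chrX:13145102-13145545). Its summit lay 230 bp upstream of mir-54, 400 bp upstream of mir-55 and 537 bp upstream of mir-56, in F09A5.3 and 3723 bp from the start of that gene. The replicates differed here. Replicate 1 ranked the peak 436, in the top 2.71% of its list, with a signal of 62.3 and a −log10 q of 2.46. Replicate 2 ranked it 1173, in the top 11.9%, with a signal of 35.8 and a −log10 q of 0.950, and it listed a further upstream summit at rank 4585. The 2 replicates' summits were 123 bp apart, whereas the median distance over the 689 IDR peaks found in both replicates within 250 bp was 22 bp. A distance at least as long was seen for 2.18% of these peaks, and a replicate 2 rank at least as low for 4.93%. Downstream of mir-56, replicate 1 held summits at rank 1623 (top 10.1%, −log10 q 1.37) and rank 11117. The list of both replicates before the IDR test held one there at rank 3912 (top 44.7%). In these lists the summit nearest to mir-56 was downstream, at 312 bp (rank 11117) in replicate 1 and 459 bp in both replicates together.

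The summit at mir-53 fell just short of the IDR list. That list consists of the 690 strongest peaks of the list called on both replicates, and the mir-53 peak ranked 700 there. Its signal of 85.2 (chrIV:11027573-11028016) compares with 86.0 for the weakest peak of the IDR list. The summit lay 104 bp upstream of the hairpin, close to the 90 bp found at mir-51. In replicate 1 it lay 123 bp upstream and ranked 542, in the top 3.37%, with a signal of 55.1 and a −log10 q of 2.34. Replicate 2 had weak summits on both sides, 104 bp upstream at rank 2428 (top 24.7%, signal 28.7, −log10 q 0.329) and 39 bp downstream at rank 2738 (signal 27.8).

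**Figure D2:**
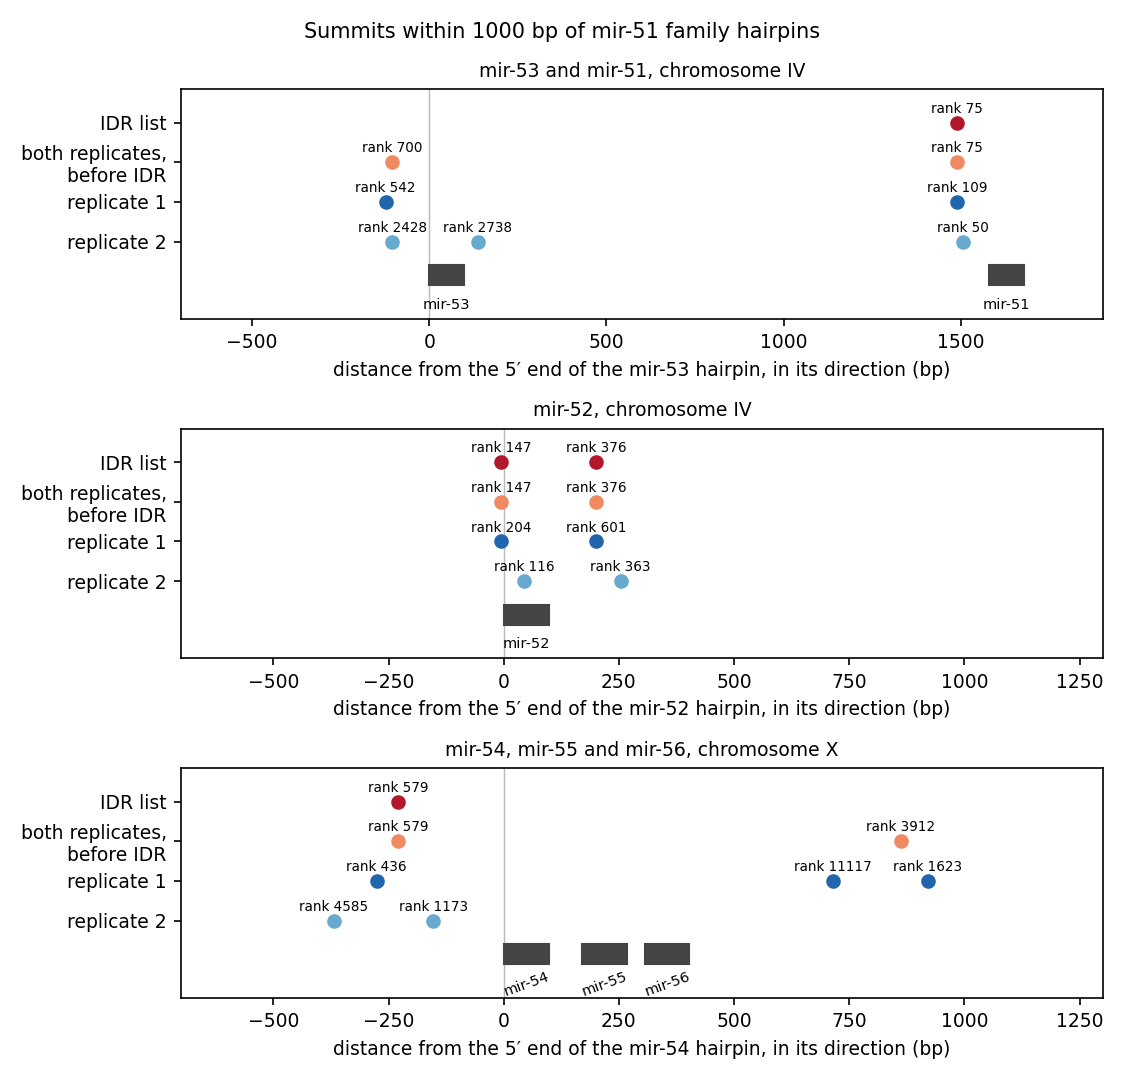
Position of each summit within 1000 bp of a family hairpin at the 3 loci (x axis, bp from the 5′ end of the first hairpin in its own direction; hairpins as dark boxes), one row per peak list, with the rank of the peak in its list. The strong summits stood at or upstream of the hairpins in every list, apart from the second mir-52 summit.

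**Figure D3:**
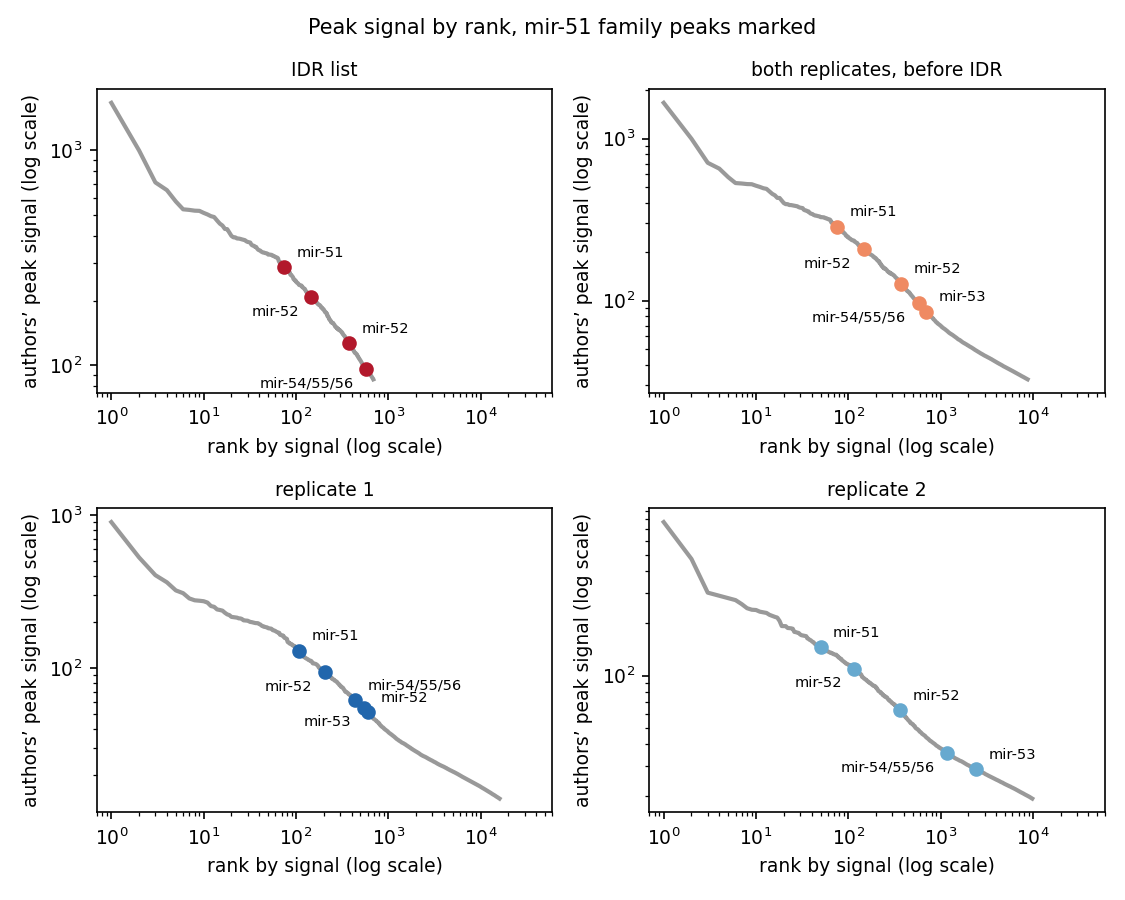
Peak signal against rank (both on log scales) in each of the 4 lists, with the family peaks marked. The mir-51 peak led the family in each list, with ranks of 75, 75, 109 and 50, and the mir-53 peak was the weakest of the family in both replicates together (rank 700) and in replicate 2 (rank 2428).

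The family members fell into a stronger pair of genes, mir-51 and mir-52, and a weaker set. When only the 690 strongest peaks of replicate 2 were used, 2 genes (mir-51 and mir-52) had a summit within 1000 bp, and with the 690 strongest of replicate 1 all 6 did. Over the whole IDR list, 17.8% of peaks were not matched among the 690 strongest of replicate 2, and 11.3% not among those of replicate 1. The peak at mir-54 to mir-56 belonged to the first of these sets. The second mir-52 peak, the lowest ranked family peak in replicate 1, was among the 690 strongest of both replicates.

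**Figure D4:**
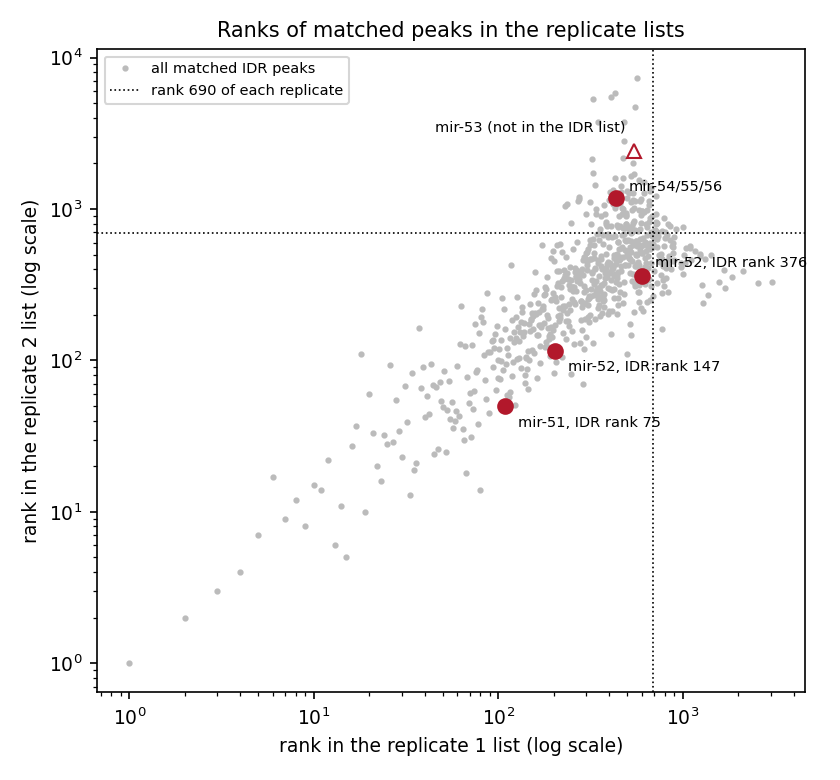
Rank of each IDR peak in the replicate 1 list (x axis) and the replicate 2 list (y axis), on log scales, with family peaks in red, the mir-53 peak as an open triangle, and dotted lines at rank 690. The peaks of mir-51 and mir-52 lie below both lines, and those of mir-54 to mir-56 and of mir-53 lie above rank 690 of replicate 2 only.

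Of the 4 family summits in the IDR list, 0 were in a promoter, taken as the region from 1000 bp upstream to 200 bp downstream of a protein-coding start. The limit of 3 counts gives 75.0% for 0 of 4, which is coarse and too high for so few summits, so no comparison rests on it. The hairpins of the family genes with an IDR summit lie at least 3090 bp from a protein-coding start. A summit within 1000 bp of them could not be in such a region, so the 0 follows from where the genes lie. Of all 690 IDR summits, 63.0% were in such a region. The nearest protein-coding starts were 3226 bp to 9777 bp from the family summits, which also reflects the positions of the genes. The median for all 690 was 369 bp, and 14.5% lay at least 3226 bp away. The nearest tRNA gene was 205363 bp from the mir-51 summit, 20127 bp from the first mir-52 summit and 23993 bp from the summit on X. The nearest piRNA gene to a family summit was 992 bp from the second mir-52 summit, and no piRNA gene lay within 1000 bp of a family hairpin.

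Words bound by known classes of factors were sought on both strands in these windows. The T-box word AGGTGTGA and the shorter GGTGTGA occurred in 0 of the 4 family windows of the IDR list and in 0 of all 690 windows (up to 0.435%). For 4 windows the same kind of limit, 75.0%, is coarse and too high. In windows 500 bp away from the summits, AGGTGTGA occurred in 0 and GGTGTGA in 3 (0.435%), so both were rare there too. With 100 bp to either side of the summits, 0.145% of all 690 windows held AGGTGTGA and 0.580% held GGTGTGA. The core GGTGT occurred in 1 of the 4 family windows, at mir-51, and in 17.2% of all 690, against 10.3% of windows 500 bp away from the summits. The mir-51 window held it 3 times. One copy, on the strand of the gene, had its middle 3 bp from the summit, and the other copies were on the opposite strand, 38 bp upstream and 46 bp downstream of the summit. Of all 690 windows, 1 held at least 3 copies (0.145%) and 11 held at least 2 (1.59%), counts that were made after the window was seen.

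GAGAGA, a repeat bound by the GAGA factor in Drosophila, occurred in the window before mir-54 and in that of mir-53, and in 16.4% of all IDR windows, against 5.22% of the windows 500 bp away. The E-box CACGTG, a site of basic helix-loop-helix factors, occurred before mir-54 only, and in 2.32% of all IDR windows, below the 3.19% found 500 bp away. TATAAA and a run of 8 T occurred in 0 of the 4 family windows and in 5.51% and 4.06% of all 690, both below the shares 500 bp away (8.26% and 10.6%). The word GGTTCGA, the core of the B box, an internal promoter element of tRNA genes, was added after the mir-51 window had been seen. It occurred there on the strand of mir-51, 41 bp from the summit toward the hairpin, and its last base is shared with 1 of the copies of GGTGT. The B box word was present in 5.65% of all IDR windows and 0.435% of those 500 bp away, in 33.3% of the 78 windows within 200 bp of a tRNA gene and in 2.12% of the other 612.

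The 10 six-base words whose share rose most at summits over sequence 500 bp away, led by GGCCAC (19.3% of summit windows, 2.61% of flanking windows), were also absent. None of the 4 family windows and not the mir-53 window held any of them, while 52.2% of all 690 IDR windows held at least 1. The words were picked from these same 690 windows, which raises that share. With only 4 family windows, their absence is not shown to be a trait of the family. The G and C content of the family windows was 50.5% at mir-51, 39.6% and 34.7% at mir-52 and 57.4% before mir-54, around a median of 48.5% for all windows.

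Other miRNA genes with a summit in the IDR list were few, and they are set beside the family here. The 13 genes shared 6 summits. One of the 13, mir-55b, is annotated on the strand opposite to mir-55 and overlaps it, so its peak is the family's own, and 4.72% of the other miRNA genes had a summit without it. The peak signals closest to that of mir-51 among miRNA genes with a summit in all 4 lists were those of mir-5550 (signal 236, rank 110, log2 difference from mir-51 −0.27), mir-58.1 (signal 132, rank 348, log2 difference −1.11) and mir-35 with its neighbours (signal 97.2, rank 571, log2 difference −1.55). The mir-5550 hairpin has kgb-1 as its host gene, and the summit lay 746 bp downstream of this hairpin. The mir-58.1 summit, at a gene of the bantam family, lay 220 bp upstream.

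The mir-35 family, which like the mir-51 family is required in embryos, had a summit at 7 of its 8 genes. These form 1 cluster with 1 peak (chrII:11537381-11537824), whose summit lay 5 bp upstream of the first hairpin, mir-35, as did the first summit at mir-52. The summits of the replicates were 44 bp apart at mir-35 and 50 bp apart at mir-52, so the equal distance is finer than the summits are placed. The mir-51 family had 4 summits at 3 loci, and the mir-35 family had 1 summit at 1 of its 2 loci. Further summits lay 349 bp upstream of mir-90 (rank 649) and 888 bp and 990 bp downstream of mir-4921 and mir-4923.1 (rank 665). Only mir-4921 and mir-4923.1 of the 13 genes had a tRNA, small nucleolar or small nuclear RNA gene within 200 bp of hairpin or summit. The replicates differed at mir-90, where the peak ranked 1670 in replicate 1 (signal 30.6) and 398 in replicate 2 (signal 59.1). The let-7, lin-4 and mir-44 families, whose let-7 and lin-4 members time larval development, had a summit at 0 of 10 genes. With 10 genes this is compatible with shares up to 30.0%, which includes the 5.10% of other miRNA genes, so these families are not shown to differ from them. The bantam family had a summit at 1 of its 5 annotated genes, and a list of 10 further miRNAs at 1, mir-90.

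**Figure D5:**
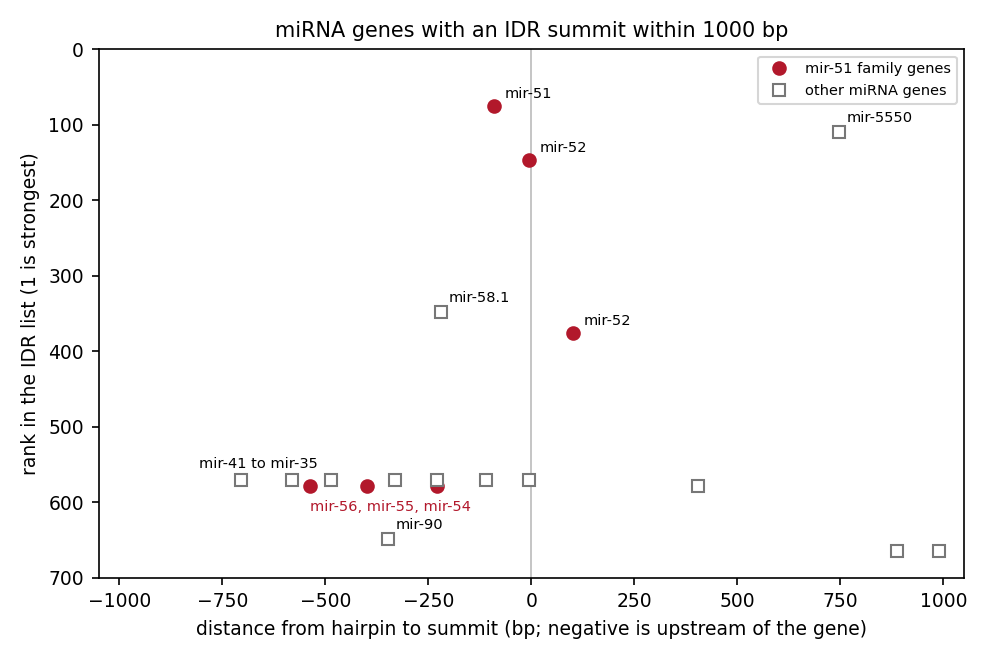
Distance from hairpin to summit (x axis, bp, negative upstream) and rank in the IDR list (y axis, strongest at the top) for every miRNA gene with an IDR summit within 1000 bp, family genes as red dots and other miRNA genes as open squares. The mir-51 peak (rank 75) ranked above all the others, and the first mir-52 peak (rank 147) above all but mir-51 and mir-5550 (rank 110).

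Genes that act with or under miRNAs were taken from a list of 20. A summit of the IDR list was found in the promoter, defined as above, for 3 of the 20, while 3.12% of all 19985 protein-coding genes had one. These were alg-5, an Argonaute gene (rank 54, signal 326), nhl-2, which encodes a cofactor of the miRNA complex (rank 338, signal 136), and ain-1, which encodes a GW182-type partner of Argonaute (rank 495, signal 106). The family target cdh-3 had no summit in its promoter in any of the 4 lists. Nor did the processing genes drsh-1, pash-1 and dcr-1. The main miRNA Argonaute genes alg-1 and alg-2 had summits in the list of both replicates before the IDR test, at ranks 5260 and 1507, where 15.8% of protein-coding genes had one.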

How the data were processed

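Peak lists in ce11 from 2 biological replicates of TBX-7 ChIP-seq were used. Per the deposited metadata, a list was made for each replicate and for both together, with 1 control alignment throughout, and the IDR list came out of these 3. The sources used here do not give the aligner, peak caller, versions or read depth. The signal in column 7 and the −log10 q in column 9 are as deposited by the authors and hold within a list. The ce10 lists were not used here.

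Summits (start plus column 10) were placed on Ensembl release 115 (WBcel235, which is ce11), and sequences were read from RefSeq of the same assembly, with Python 3.11.15. Distance runs from the nearer hairpin end. miRNA genes less than 2000 bp apart formed 1 locus. Wilson intervals (SciPy 1.17.1) and limits for a count of 0 (3 counts) cover counting error only. The intervals over genes treat each gene as independent, although neighbouring genes can share a summit. The limits for a count of 0 are too high where very few summits or windows were counted. Summit finding was tested on simulated data. Members, lists and words were chosen with earlier results of these data known, and no test was made. Named genes were the family, its neighbours, other miRNA genes with an IDR summit (the 10 strongest, to which the remaining 3 were added), those nearest the 1000 bp limit, and bound genes of the miRNA list with cdh-3; drsh-1, pash-1, dcr-1, alg-1 and alg-2 were named after their values were seen. Alternatives covered distance, side, interval overlap, peak strength, each replicate, loci and window width.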

Additional observations from a re-analysis of the deposited data

How the results depend on the processing

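Of the 6 family genes, 5 had a summit in the IDR list. The number was 2 within 200 bp, 2 where the interval had to overlap the hairpin and 2 with the stronger peaks of the IDR list only, and in each case these were mir-51 and mir-52. It was 4 to 6 with other distances, upstream summits only, mature positions or peaks of the list before the IDR test with a −log10 q of at least 2. With 1 replicate left out it ran from 2 to 6. The share of other miRNA genes, 5.10%, was 0.784% within 200 bp, 3.14% within 500 bp and 9.02% within 2000 bp. It was 3.53% with upstream summits only, 1.18% with interval overlap, 0.392% with the stronger peaks and 2.37% by locus. For mature positions and for the limit on −log10 q this share was not computed, so those family counts have no background beside them. With 1 replicate left out the share of other miRNA genes ran from 3.92% to 4.31%. With each window extended to 100 bp per side, the 4 family windows of the IDR list held the same words. The mir-53 window gained TATAAA. The shares of all 690 IDR windows were then 28.6% for GGTGT, 29.0% for GAGAGA, 14.9% for TATAAA and 11.2% for the run of 8 T. They were 3.77% for the E-box, 10.1% for the B box word, 0.145% for AGGTGTGA and 0.580% for GGTGTGA. No paired analysis was possible because the study has 1 group. Read depth is unknown, so no limit from depth can be given, and 2 replicates and 4 summits limit what can be said of the family.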

Other observations

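The 3 family loci differ in how isolated their peaks are. The nearest IDR summit outside the locus was 5848 bp from the mir-51 and mir-53 hairpins (rank 524, signal 101), 146303 bp from mir-52 and 23402 bp from the cluster on X (rank 640, signal 89.9).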
